A study of Canis lupus familiaris with 8 samples.

Results

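A group of 178 genes was raised by both siRNA constructs against Nfat5 in MDCK I cells, a canine kidney tubule epithelial cell line, although hyperosmolality itself had moved them little. The genes were chosen by their measured values in the 8 libraries of a count table of 32704 genes. Each count was divided by the size factor of its library, the median ratio to the other libraries, and the 2 normalized counts of a group were averaged. A gene was kept when at least 1 group mean reached 400 normalized counts, which 9951 genes did. On the scale of log2(mean + 1), Neg-siRNA (500 mOsm) had to lie between −0.35 and 0.35 of Neg-siRNA (300 mOsm), and both Nfat5-siRNAs had to lie at least 0.8 above Neg-siRNA (500 mOsm). Of the 9951 genes, 3603 were inside this osmotic window. Among these, 254 passed the limit with Nfat5-1-siRNA, 291 passed it with Nfat5-2-siRNA, and the 178 that passed both made up 1.79% of the 9951 genes and 4.94% of the 3603.

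The libraries formed 4 groups of 2. The cells labelled Neg-siRNA (300 mOsm) were kept in normal growth medium. The other 3 groups, labelled Neg-siRNA, Nfat5-1-siRNA and Nfat5-2-siRNA, spent the last 24 h at 500 mOsm, in medium to which raffinose had been added. All groups, the controls included, were transfected with 100 nM of an siRNA in Lipofectamine RNAiMAX. Neg-siRNA was directed against Slc22a6, which the labels describe as not expressed in these cells, and neither untransfected cells nor Nfat5-siRNA at 300 mOsm were analysed here. The replicates of a group were different passages of the same line, number 15 for replicate 1 and number 17 for replicate 2. The replicates are therefore cultures of a single line, and p-values measure the spread between these samples, in fits with the passage as a block the spread left after the passage difference. Values are given in the order passage 15, passage 17. The libraries held between 34564103 and 46043788 counts.

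Nfat5, also called TonEBP, is a transcription factor of the Rel family that becomes active when the surrounding medium turns hypertonic. It is known in the kidney for driving the carriers and enzymes by which cells collect compatible osmolytes, such as the taurine carrier SLC6A6, the betaine carrier SLC6A12 and aldose reductase, AKR1B1. An siRNA guides the cleavage of transcripts that match it, and it can also lower partly matching ones, which is why more than 1 construct against the same gene is commonly used.

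The osmolyte genes named above fell with both constructs. SLC6A6 had 136026 and 98749.8 normalized counts in Neg-siRNA (500 mOsm), 55909 and 41569 with Nfat5-1-siRNA, and 49479.6 and 38269.5 with Nfat5-2-siRNA. Its log2 fold change against Neg-siRNA (500 mOsm) was −1.29 ± 0.210 (SE) with Nfat5-1-siRNA and −1.47 ± 0.212 with Nfat5-2-siRNA, and the adjusted p-values were 0.00990 and 0.00270 (edgeR's quasi-likelihood test, Benjamini-Yekutieli adjustment over 19835 genes). AKR1B1 fell by 2.21 and 2.10 on the log2 scale and SLC6A12 by 1.74 and 1.92 in the same test, with adjusted p-values from 0.000418 to 0.0135. These 3 genes were paired with their identifiers through a list that was chosen on the same samples, so their fall is not independent evidence.

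The transcript of the targeted gene did not serve to check the siRNA labels. The count table gives Ensembl identifiers without symbols, and in the RefSeq annotation of the dog NFAT5 lies beside NQO1. The gene beside NQO1 in the table, at chr5:80003598-80115099 of CanFam 3.1, is taken as Nfat5 on this ground alone. It had 3485 and 3164 normalized counts in Neg-siRNA (500 mOsm), 4249 and 3623 with Nfat5-1-siRNA and 3029.8 and 3067 with Nfat5-2-siRNA. The log2 fold changes of 0.22 ± 0.144 (SE) and −0.17 ± 0.144 had adjusted p-values of 1 in edgeR.

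Across the 178 genes, the median group mean was 995 normalized counts with Neg-siRNA at 300 mOsm, 943 with it at 500 mOsm, 2058 with Nfat5-1-siRNA and 2185 with Nfat5-2-siRNA. The median difference from Neg-siRNA (500 mOsm) was 1.07 on the log2 scale with Nfat5-1-siRNA, with quartiles of 0.94 and 1.26. It was 1.21 with Nfat5-2-siRNA, with quartiles of 0.99 and 1.51. As plain ratios of the means, the median genes were 2.10-fold and 2.32-fold higher. Because these differences chose the genes, they are given as a description and without a test.

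**Figure D1:**
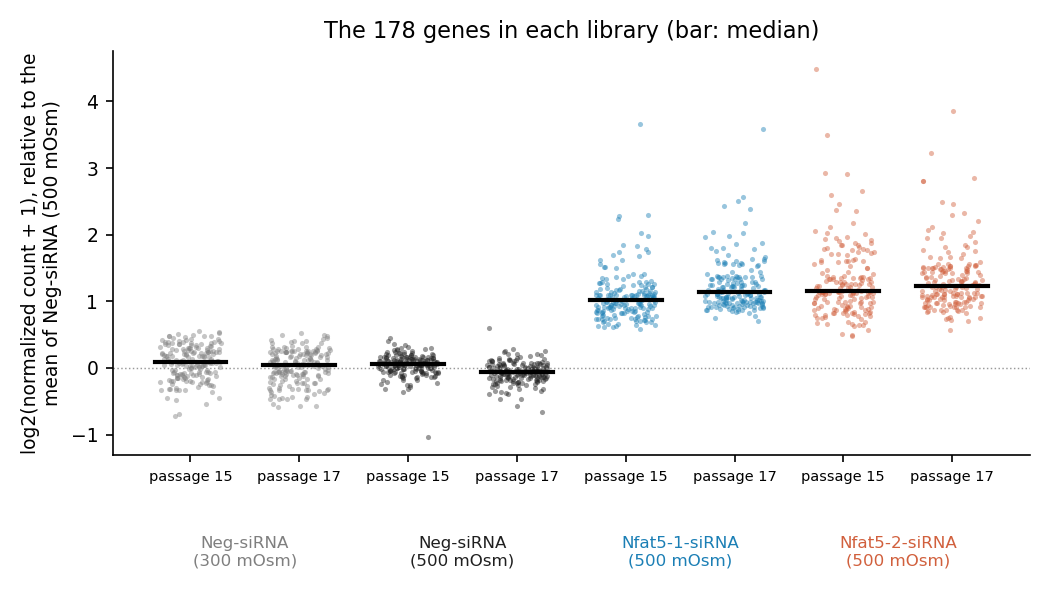
Values of the 178 raised genes in each library, as log2(normalized count + 1) minus the same for the mean of Neg-siRNA (500 mOsm). Each point is a gene and each bar the median of a library. The points of the 4 Nfat5-siRNA libraries lie above 0 and those of the 4 Neg-siRNA libraries scatter around it, a separation that the choice of genes required of the group means.

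The choice used the group means, and the single libraries behind them are given as a description. In all 178 genes the lowest of the 4 Nfat5-siRNA libraries was above the highest of the 4 Neg-siRNA libraries, compared with 16.6% of the 9951 genes that reached 400 normalized counts. The ratio of the lowest Nfat5-siRNA library to the highest Neg-siRNA library ranged from 1.04 to 9.57 with a median of 1.63. In the edgeR test against Neg-siRNA (500 mOsm), 139 of the genes were called higher with Nfat5-1-siRNA, where 3.4% of all tested genes were, and 156 with Nfat5-2-siRNA, where 4.67% were. None was called in either direction in the osmotic comparison of the Neg-siRNA groups, where 20.6% of all tested genes were. The separation of the libraries and both sets of counts follow largely from the way the genes were chosen, and nothing is read from them beside the shares of all genes.

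The genes made up 0.760% and 0.754% of the counts in Neg-siRNA (300 mOsm). In the hyperosmotic controls, Neg-siRNA (500 mOsm), they made up 0.688% and 0.648%. They made up 1.63% and 1.86% with Nfat5-1-siRNA and 2.07% and 2.08% with Nfat5-2-siRNA. The share of the library total was lowest in the hyperosmotic controls and highest with Nfat5-2-siRNA. These are sums of the counts that chose the genes, so the gap between the Nfat5-siRNA and Neg-siRNA libraries was largely set by the choice. The gene with the highest group mean provided between 4.10% and 9.18% of the group's normalized counts in a library. Without it, the share was between 0.610% and 0.725% in the Neg-siRNA libraries and between 1.50% and 1.92% in the Nfat5-siRNA libraries. The total of a library also holds genes that changed strongly. SLC6A6 had 10200 and 8568 normalized counts in Neg-siRNA (300 mOsm), beside 136026 and 98749.8 in Neg-siRNA (500 mOsm). The part of such genes in the order of the shares was not tested. The counts measure RNA relative to the total of a library, so a larger share and more RNA per cell cannot be told apart.

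The label of a group without osmotic change holds only inside the window. The median of the osmotic difference, Neg-siRNA (500 mOsm) minus Neg-siRNA (300 mOsm), was −0.10 on the log2 scale, with quartiles of −0.22 and 0.10. It was negative in 108 of the genes and positive in 70. Negative values made up 60.7% of the group, beside 49.7% of all 3603 genes in the window. The libraries of the Neg-siRNA groups overlapped in 105 genes. Both libraries at 300 mOsm were higher in 51 genes, beside 22.1% of the window genes, and both libraries at 500 mOsm in 22 genes, beside 21.7%. The Neg-siRNA (500 mOsm) libraries enter the osmotic and the siRNA differences with opposite signs, so the choice favours genes with low values there, and nothing is read from this lean towards negative values. Outside the window, the siRNA limits were passed with both constructs by 305 genes with a larger osmotic fall and by 93 with a larger osmotic rise.

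**Figure D2:**
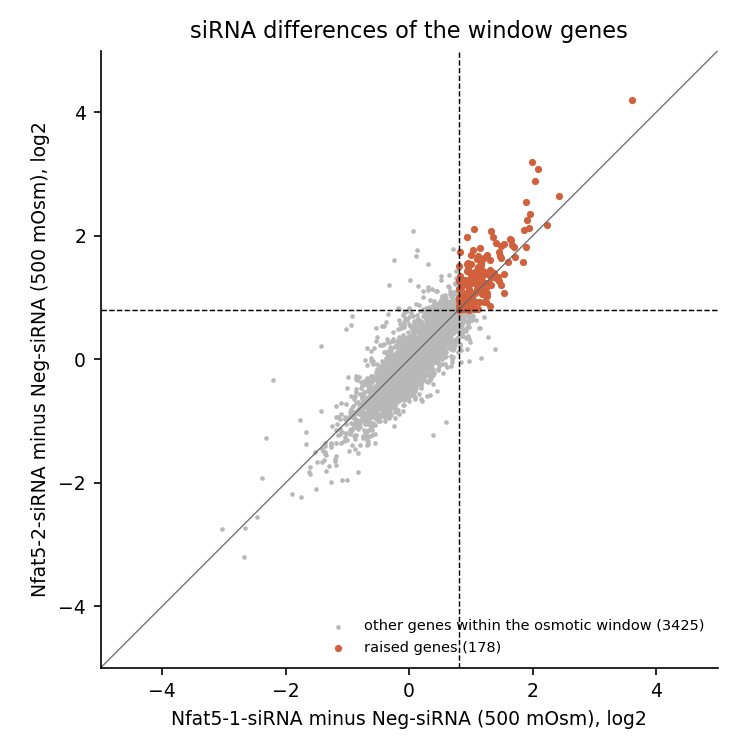
Difference of each Nfat5-siRNA from Neg-siRNA (500 mOsm), on the log2 scale, for the 3603 genes inside the osmotic window, with Nfat5-1-siRNA on the x axis and Nfat5-2-siRNA on the y axis. The dashed lines mark the limit of 0.8, the solid line equal differences, and the 178 raised genes fill the upper right corner up to 3.62 and 4.20. Both axes share the Neg-siRNA (500 mOsm) libraries.

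Genes that passed the limit with a single construct lay mostly between 0 and the limit with the other. Of the 76 genes past the limit with Nfat5-1-siRNA alone, 74 were above 0 with Nfat5-2-siRNA, beside 50.2% of the window genes, with a median difference of 0.61. Of the 113 past the limit with Nfat5-2-siRNA alone, 108 were above 0 with Nfat5-1-siRNA, beside 54.9%, with a median of 0.60. Both comparisons share the Neg-siRNA (500 mOsm) libraries, so these values describe the limit and nothing is read from their agreement. A limit of at least 1 with both constructs was met by 93 of the 178 genes and a limit of at least 2 by 5.

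The largest rise was that of ENSCAFG00000009445, a gene of 1320 exonic bases on the reverse strand at chr29:40676851-40694174 of CanFam 3.1, the build of all positions here. It had 52.3 and 32.8 normalized counts with Neg-siRNA at 300 mOsm, 50.7 and 31.3 with it at 500 mOsm, 529 and 500.5 with Nfat5-1-siRNA and 938 and 606 with Nfat5-2-siRNA. Both Neg-siRNA groups covered the same range, and every Nfat5-siRNA library was at least 9.57 times the highest of them. The group means were 12.6-fold and 18.8-fold above Neg-siRNA (500 mOsm).

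ENSCAFG00000012028, at chr36:13861949-13880179 with 1167 exonic bases, ranked next by the mean of both siRNA differences. It had 88.1 and 97.2 normalized counts with Neg-siRNA at 300 mOsm, 73.8 and 89.8 with it at 500 mOsm, 388 and 267 with Nfat5-1-siRNA, and 935 and 576 with Nfat5-2-siRNA. The libraries of the constructs did not overlap, and passage 15 was the higher with each of them. The rise was 4.0-fold with Nfat5-1-siRNA and 9.23-fold with Nfat5-2-siRNA.

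The count table pairs no identifier with a symbol, none of the 178 identifiers was among the 860 that could be given a symbol, and the 176 further genes are therefore described by their position and rank. Rank 3, at chr31:27177787-27256887, had 209 and 159 normalized counts with Neg-siRNA at 300 mOsm, 120.0 and 179.7 with it at 500 mOsm, 487 and 787 with Nfat5-1-siRNA and 1136 and 1412 with Nfat5-2-siRNA. Rank 4, at chr8:28522372-28538838, had 2668 and 1871 with Neg-siRNA at 300 mOsm, 2138 and 1826 with it at 500 mOsm, 9658 and 11701 with Nfat5-1-siRNA and 10892 and 13882 with Nfat5-2-siRNA. At rank 3 the constructs were apart, 4.25-fold and 8.50-fold above Neg-siRNA (500 mOsm), while at rank 4 their libraries overlapped, 5.39-fold and 6.25-fold above it.

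Rank 5, at chr4:60592307-60602504, was the gene whose passages differed most among the leading ones. Its libraries had 1051 and 2378 normalized counts with Neg-siRNA at 300 mOsm, 828 and 2554 with it at 500 mOsm, 4269.9 and 9575 with Nfat5-1-siRNA, and 12908 and 12249.5 with Nfat5-2-siRNA. Passage 17 was the higher in 3 of the 4 groups and the passages were close with Nfat5-2-siRNA. The mean siRNA difference was 2.46 on the log2 scale over both passages, 3.16 in passage 15 and 2.08 in passage 17.

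Rank 6, at chr25:15207876-15296078, had 258 and 350.2 normalized counts in Neg-siRNA (500 mOsm), 894 and 1370.2 with Nfat5-1-siRNA and 1848 and 1716 with Nfat5-2-siRNA. Rank 7, at chr4:25131844-25301825, had 624 and 619.7 in Neg-siRNA (500 mOsm), 2458 and 3374 with Nfat5-1-siRNA and 2237 and 3425 with Nfat5-2-siRNA. Rank 8, at chr4:22003478-22084161, had 461 and 389 in Neg-siRNA (500 mOsm), 2084 and 1231 with Nfat5-1-siRNA and 2685 and 1672 with Nfat5-2-siRNA. The constructs were apart at rank 6 and overlapped at ranks 7 and 8, and passage 17 was the higher with both constructs at rank 7 and the lower at rank 8.

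Rank 9, at chr26:823844-831985, rose 3.78-fold and 4.78-fold, and it shared exonic positions with another gene, so that its counts are uncertain. Rank 10, at chr8:71294006-71303517, had close replicates, with 853 and 856 normalized counts with Neg-siRNA at 300 mOsm, 726 and 732 with it at 500 mOsm, 2605 and 2994 with Nfat5-1-siRNA and 3022 and 3381 with Nfat5-2-siRNA. Rank 12, at chr18:2218980-2358902, had 1988 and 1130.4 in Neg-siRNA (500 mOsm), 5186 and 6341 with Nfat5-1-siRNA and 5369 and 5612 with Nfat5-2-siRNA. At rank 12 the Neg-siRNA libraries differed more between the passages than the Nfat5-siRNA libraries did.

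Rank 11, at chr7:6360964-6389118 with 5021 exonic bases, had the highest group mean. Its libraries had 14378 and 19529 normalized counts with Neg-siRNA at 300 mOsm, 12961 and 17082 with it at 500 mOsm, 50128 and 58884 with Nfat5-1-siRNA and 53935 and 73756 with Nfat5-2-siRNA. Passage 17 was the higher in each group, and the Nfat5-siRNA libraries were at least 2.57 times the highest Neg-siRNA library. The rise was 3.63-fold and 4.25-fold.

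**Figure D3:**
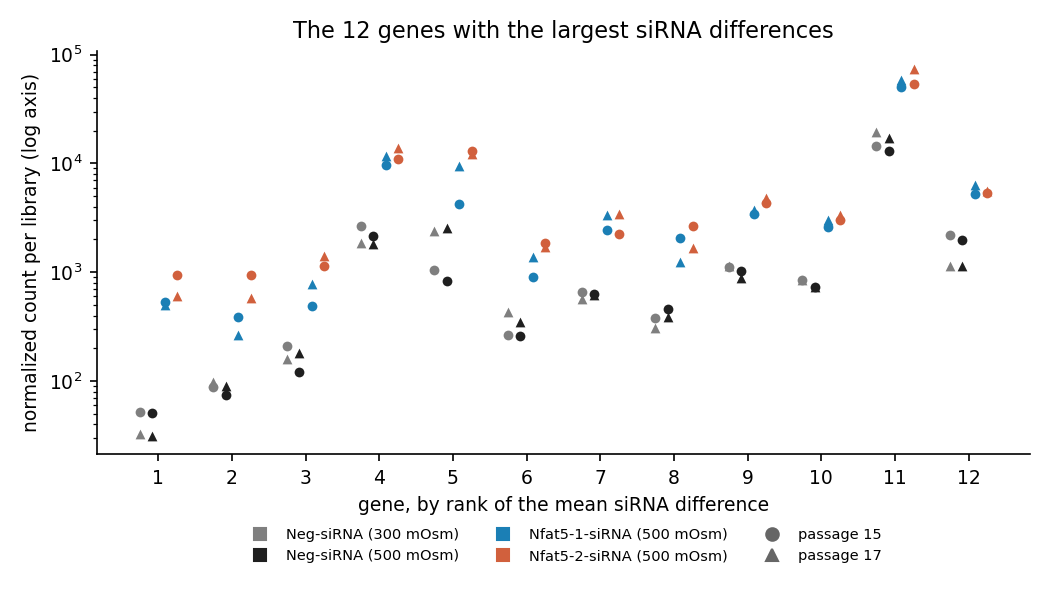
Normalized count of the 12 genes with the largest mean siRNA difference in each of the 8 libraries, on a log axis, with the genes on the x axis by rank. Circles are passage 15 and triangles passage 17, and colours are the groups. Starting levels span from 31.3 at rank 1 to 19529 at rank 11, and in each gene the 4 Nfat5-siRNA libraries lie above the 4 Neg-siRNA libraries.

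The other 166 genes rose between 1.74-fold and 3.61-fold with Nfat5-1-siRNA and between 1.74-fold and 4.33-fold with Nfat5-2-siRNA. By the mean of both differences on the log2 scale, 10 of the 178 genes were at 2 or more, 18 between 1.5 and 2, 98 between 1 and 1.5, and 52 under 1. A rise of about 2-fold was therefore usual and the leading genes formed a thin upper end. The genes started from a wide range of levels. The 36 genes under 400 normalized counts in Neg-siRNA (500 mOsm) had a median mean difference of 1.29, the 142 at 400 or more one of 1.12, and the 15 at 4000 or more one of 1.18. Genes of the first kind could enter only by passing 400 in another group, which favours large differences among them.

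Levels between genes can be compared only per length. Per kilobase of exon in Neg-siRNA (500 mOsm), the median of the 178 genes was 304 normalized counts, with quartiles of 161 and 582. The 3603 genes in the window had a median of 842, with quartiles of 403 and 1903. The level in Neg-siRNA (500 mOsm) was part of the choice, and 32 of the raised genes were under the floor in both Neg-siRNA groups and entered through the Nfat5-siRNA groups, so nothing is read from the lower median. The highest level, 11554 per kilobase, was that of a gene of only 117 exonic bases in 1 exon at chr18:51768480-51768596, at rank 168. For so short a gene the length weighs heavily on this value. Its libraries had 1253 and 1450.4 normalized counts in Neg-siRNA (500 mOsm), 2763 and 2272 with Nfat5-1-siRNA and 2277 and 2618 with Nfat5-2-siRNA, so the constructs overlapped.

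Next in level per kilobase of exon came rank 82 at chr12:5746899-5757614 with 3353, rank 11 with 2992, and rank 99 at chr33:29206003-29231090 with 2791. Rank 41 at chr38:6198192-6204719 followed with 2532 and rank 27 at chr17:36863739-36879753 with 2451. Among these abundant genes, rank 27 rose 2.78-fold and 3.19-fold and rank 41 rose 2.15-fold and 3.08-fold. Rank 82 had 14934 and 15770.3 normalized counts in Neg-siRNA (500 mOsm), but 9328 and 20248 in Neg-siRNA (300 mOsm), so its osmotic difference near 0 averaged passages that lay on opposite sides. With the constructs it had 25439.9 and 33134, and 39176 and 43145.

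The values nearest to each limit were continuous across it. The lowest accepted differences were 0.8007 and 0.8014 with Nfat5-1-siRNA, and the highest rejected ones among genes that met the other conditions were 0.7993 and 0.7971. For Nfat5-2-siRNA the corresponding values were 0.8008 and 0.8052, and 0.7883 and 0.7839. The osmotic differences nearest to the window's edges were 0.347 and 0.310 inside and 0.351 and 0.354 outside at the upper edge, and −0.347 and −0.346 inside and −0.352 and −0.354 outside at the lower edge. The highest group mean was 441 and 442 for the genes just over the floor and 398 and 390.2 for those just under it.

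Whether the constructs raised the genes to the same extent was asked by comparing them with each other. The limits required nothing of the sign of this difference, although they bound its size for genes near them. The floor of 400 favoured a sign in genes that reached it with a single construct. Rank 2 reached it only with Nfat5-2-siRNA, with a mean of 755.4 beside 327.3 with Nfat5-1-siRNA. Rank 47 reached it only with Nfat5-1-siRNA, with a mean of 452.6 beside 372.3 with Nfat5-2-siRNA. The genes of each kind were not counted. Nfat5-2-siRNA was above Nfat5-1-siRNA in 120 of the 178 genes, with a median difference of 0.11 on the log2 scale and a range from −0.47 to 1.2. With TMM-scaled library sizes, edgeR's scaling by a trimmed mean of ratios, it was above in 111. By median-of-ratios scaling it was above in 39 of the 50 genes with the largest mean siRNA differences, with a median of 0.32. Of the 50 with the smallest it was above in 25, with a median of 0.0009. Among the 9951 genes over the floor it was above in 40.1%, or 36.3% with TMM. Of the 104 genes lowered by at least 0.8 with both constructs inside the same window, Nfat5-2-siRNA was the lower in 74, beside 59.9% of the genes over the floor, with median differences of −0.15 and −0.07. Both Nfat5-2-siRNA libraries were above both Nfat5-1-siRNA libraries in 71 genes, beside 19.4% of the 9951 genes over the floor. The opposite held in 12, beside 33.4%, and the libraries overlapped in the others. In the fit of the 4 groups, edgeR called none of the 178 genes higher and none lower with Nfat5-2-siRNA, where 0.0302% of all tested genes were called higher and 0.0101% lower, and 28 of the 178 (15.7%) had an unadjusted p under 0.05 in edgeR, beside 14.9% of all tested genes.

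With the passage as a block, edgeR called 14 of the genes (7.87%) higher with Nfat5-2-siRNA and 0 lower. Of all tested genes, 2.39% were called higher and 2.55% lower. The tested genes include genes under the floor, and the shares among the genes over it were not computed with the block. The 14 include rank 2, which reached the floor of 400 only with Nfat5-2-siRNA, so its call is not free of the choice. DESeq2 with the block called 9 of these 14 and no further gene higher, 5.06% of the 178, beside 1.45% of all tested genes. It called 1 gene lower, beside 1.61% of all tested genes. When the edgeR fit with the block was restricted to the 15388 genes that pass filterByExpr, edgeR's filter on low counts, 1 of the 14 was called, and no other of the 178. This was 0.562% of them, beside 0.526% of the genes tested there, a share at the background. The prior degrees of freedom, the weight edgeR gives to the spread shared by all genes, were 8.96 in that fit and 107.7 before it, and the cause of the lost calls was not tested.

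The gene called in all 3 of these fits was rank 35, at chr12:46968127-46991899. It had 2526 and 3485 normalized counts in Neg-siRNA (500 mOsm), 5107 and 7192 with Nfat5-1-siRNA and 8351 and 12205 with Nfat5-2-siRNA. Passage 17 was the higher in each group, and within each passage Nfat5-2-siRNA was above Nfat5-1-siRNA. The log2 fold change between the constructs was 0.71 ± 0.128 (SE) with an adjusted p-value of 0.000160 in edgeR with the block, and 0.73 ± 0.109 with an adjusted p-value of 0.0326 after filterByExpr. Without the block it was 0.72 with an adjusted p-value of 1 in edgeR, and it fell to 0.41 without passage 17 of Nfat5-2-siRNA.

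The largest differences in favour of Nfat5-2-siRNA were those of ranks 2, 26 and 33. Rank 2 reached the floor of 400 only with Nfat5-2-siRNA, so the choice favoured its direction. Ranks 26 and 33 were over the floor with both constructs. Rank 26, at chr24:36129001-36162505, had 2542 and 2992 normalized counts in Neg-siRNA (500 mOsm), 4977 and 6471 with Nfat5-1-siRNA and 14264 and 9691 with Nfat5-2-siRNA. The passages were thus in opposite order under the constructs, but the libraries did not overlap. Its log2 fold change was 1.05 ± 0.138 (SE) with an adjusted p-value of 2.25e-08 in edgeR with the block, and the adjusted p-value was 0.242 without the block and 0.0715 with the block after filterByExpr. It was also the single one of the 178 genes called higher without the block by DESeq2, with an adjusted p-value of 0.00103, where 0.595% of all tested genes were. Rank 33, at chr8:3751230-3763780, had 614 and 635 normalized counts with Nfat5-1-siRNA and 1671 and 919 with Nfat5-2-siRNA, beside 331 and 322 in Neg-siRNA (500 mOsm).

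In the opposite direction, the largest differences were those of ranks 54, 105 and 107. Rank 54, at chr11:8436322-8561517 with 43 exons, had 1431 and 1340.3 normalized counts in Neg-siRNA (500 mOsm), 3965 and 4109 with Nfat5-1-siRNA and 3038 and 2806 with Nfat5-2-siRNA. Rank 105, at chr6:69118735-69170910, had 2739.9 and 2995, then 7021 and 7268, and 4966 and 5444 in the same groups. Both had close replicates and no overlap between the constructs, with log2 fold changes of −0.49 ± 0.138 and −0.48 ± 0.139 (SE) in edgeR without the block and adjusted p-values of 1. With the block the adjusted p-values were 0.0602 and 0.0516 in edgeR. Rank 105 was the gene called lower by DESeq2 with the block, at −0.46 ± 0.117 (SE) with an adjusted p-value of 0.0353. At rank 107, at chr21:4824399-5167282, the libraries overlapped, with 2879.5 and 3489 against 2169 and 2915 normalized counts, and the gene shared exonic positions with another gene.

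**Figure D4:**
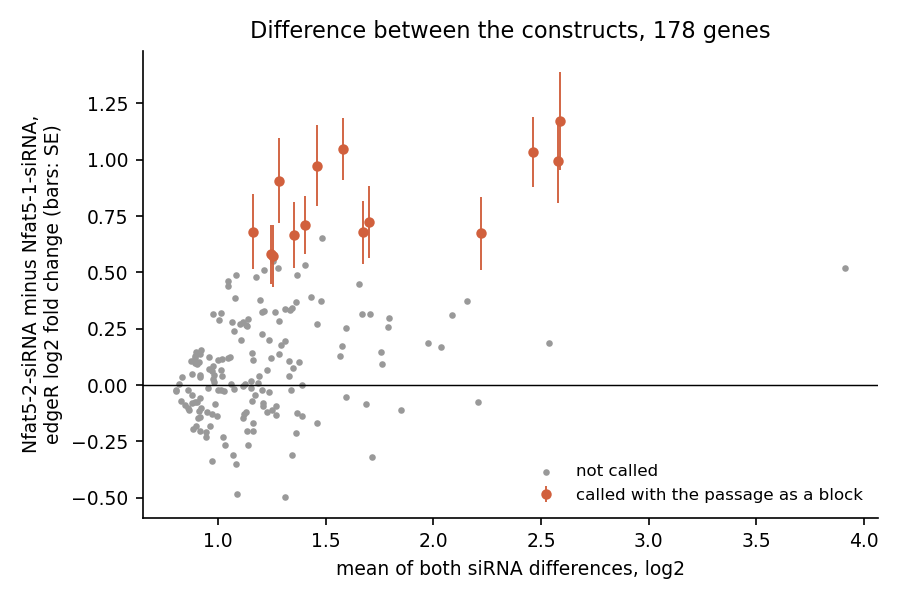
Log2 fold change of Nfat5-2-siRNA against Nfat5-1-siRNA from edgeR with the passage as a block, on the y axis, against the mean of both siRNA differences on the x axis, for the 178 genes. Orange points with bars of 1 SE are the 14 genes called in that fit, all with Nfat5-2-siRNA higher, of which 1 was called after filterByExpr. The empty lower left corner follows from the limit of 0.8 on both differences.

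The passages were also compared, and the choice set no condition on their difference. The difference between passage 17 and passage 15 was tested in edgeR over all 4 groups. It called 6 of the 178 genes (3.37%) higher in passage 17, where 1.28% of all tested genes were, and 3 (1.69%) lower, where 2.02% were. Among the 9951 genes over the floor, the shares were 2.26% higher and 3.57% lower. After filterByExpr none of the 9 was called, while 101 genes were called in all, and 38 of the 178 genes (21.3%) had an unadjusted p under 0.05 in edgeR before that filter, beside 18.5% of all tested genes. The largest differences were those of rank 5, higher in passage 17 by 0.97 ± 0.112 (SE) on the log2 scale with an adjusted p-value of 2.44e-10, and of rank 17 at chr7:45378307-45408131, at −0.68 ± 0.150 with an adjusted p-value of 0.00768. DESeq2 called 6 of the 9, without rank 5, whose difference was 0.98 ± 0.341 with an adjusted p-value of 0.710, and with rank 17 at an adjusted p-value of 0.0446. Rank 17 had 238 and 110.0 normalized counts in Neg-siRNA (500 mOsm), 715 and 542 with Nfat5-1-siRNA and 643 and 404 with Nfat5-2-siRNA, with passage 15 the higher in each.

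Within each passage on its own, all 178 genes were higher with both constructs. These differences come from the same libraries whose means chose the genes, so they are a description and no support for the rise. The lowest of these within-passage differences was 0.21 on the log2 scale. Both limits of 0.8 were met by 122 of the genes in passage 15 and by 169 in passage 17, and by 113 in both. The median differences in passage 15 were 0.97 with Nfat5-1-siRNA and 1.14 with Nfat5-2-siRNA, and those in passage 17 were 1.22 and 1.32. In 140 of the genes the mean of both differences was larger in passage 17. The share of all genes for which this held was not computed, so nothing is read from the count. Scaled within a passage, the genes over the floor had medians of −0.004 and −0.095 in passage 15. In passage 17 these were 0.030 and −0.020. Both limits were passed by 4.75% of them in passage 15 and by 8.23% in passage 17.

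**Figure D5:**
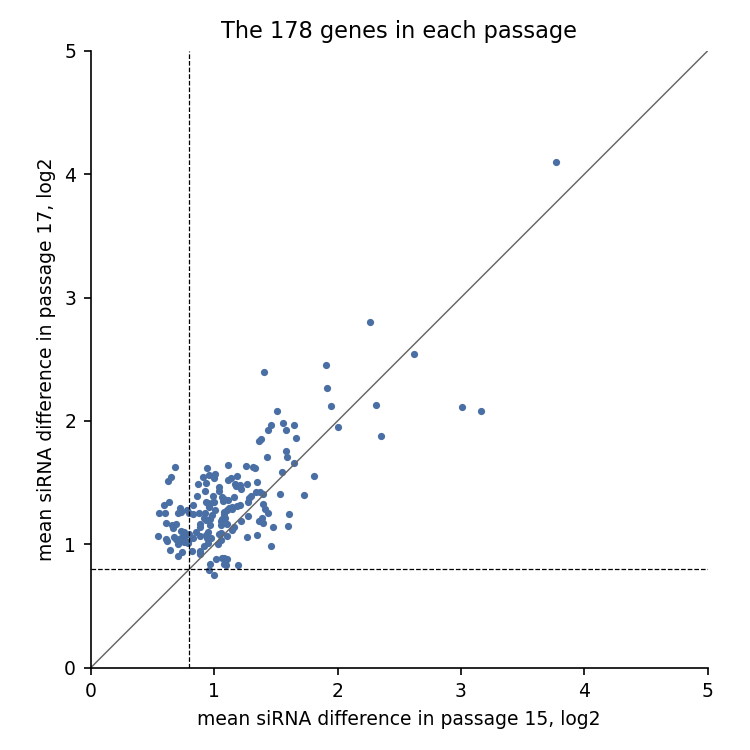
Mean of both siRNA differences in passage 15 (x axis) and in passage 17 (y axis), on the log2 scale, for the 178 genes, with the limit of 0.8 as dashed lines and equality as a solid line. The points lie above 0 in both passages, which the choice of genes by the means of these libraries largely fixes. Above the line of equality lie 140 of them, and the share of all genes there was not computed.

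The conditions were also applied to a single passage, and the genes so chosen were measured in the other. The measured values did not enter this second choice, but the conditions had been set with results of both passages known. Of the 125 genes of passage 15, 104 were among the 178, as were 141 of the 290 of passage 17. Each group had a single library in a passage, so the values are a description and no independent support for the rise. The conditions applied to passage 15 alone chose 125 genes. In passage 17 all 125 were higher with both constructs, beside 43.2% of the genes over the floor there, with medians of 1.29 for Nfat5-1-siRNA and 1.35 for Nfat5-2-siRNA, against 1.05 and 1.26 in the passage that chose them. Both limits were passed in passage 17 by 111 of the 125 (88.8%), beside 8.23% of the genes over the floor there. Whether or not they passed the limits, 91 of the 125 (72.8%) were inside the osmotic window there, beside 36.7%.

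Passage 17 alone chose 290 genes, and in passage 15 their medians were 0.81 and 0.87, against 1.07 and 1.12 in passage 17. In passage 15, 289 of the 290 were higher with both constructs, beside 36.6% of the genes over the floor there, and 125 of them (43.1%) passed both limits, beside 4.75% of the genes over the floor there. Inside the osmotic window lay 195 of them (67.2%), beside 35.0%. Chosen in both passages were 80 genes, 64.0% of the 125 and 27.6% of the 290. Samples of the same passage shared the Neg-siRNA (500 mOsm) library for both constructs.

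Exonic length was not a condition of the choice. The median of the raised genes was 3443 exonic bases, with quartiles of 1899 and 5255, and that of the other 3425 window genes was 2448, with quartiles of 1326 and 4269. The 104 genes lowered by at least 0.8 with both constructs inside the same window had a median of 2181.5. The floor of the choice is on counts, which scale with length, so length could enter through it, and its part in these values was not tested. The median number of exons was 11, beside 10 in the window and 9 among the lowered genes. Single-exon genes made up 2.81% of the raised genes and 4.39% of the window genes. An exon overlap with another gene was found for 12 of the raised genes (6.74%), beside 11.5% of the window genes, and without strand in the counting the reads of such pairs cannot be told apart.

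The genes were spread over the genome. They lay on 38 chromosomes, with 15 on chromosome 1, 14 on chromosome 9, and 12 each on chromosomes 5 and 6. These were 7.73%, 6.03%, 6.56% and 6.03% of the window genes of each chromosome, beside 4.94% overall. None was mitochondrial, and 1 lay on an unplaced scaffold. On the forward strand lay 94 and on the reverse strand 84. There were 5 pairs within 100 kb of each other, so 10 genes (5.62%) had such a neighbour, beside 3.85% of the 104 lowered genes. The closest pair, ranks 94 and 115, lay 16.2 kb apart on chromosome 9 with 7 other genes of the annotation between them. The pair with ranks 14 and 170, at chr1:98436390-98534071 and chr1:98567721-98578051, lay 33.65 kb apart on opposite strands with 1 gene between them, which did not reach the floor.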

How the data were processed

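RNA of MDCK I cells was sequenced by the authors in paired-end runs and mapped to CanFam 3.1 with HISAT2 2.0.5. The authors deposited unnormalized whole-number counts, in which featureCounts 1.5.1 had summed the reads over the exons of each Ensembl release 92 gene. Per the file header, strand was ignored (option 0) and no option for fragments was set, so both mates of a pair may be counted. The 178 genes and the comparisons were chosen with earlier results of these data known. Normalized counts are deposited counts divided by median-of-ratios size factors.

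Tests used R 4.3.3 and edgeR 4.0.16 (TMM, quasi-likelihood, 4 group means, summed count of at least 5, Benjamini-Yekutieli adjustment, threshold 0.05). The SE was derived from the F statistic. DESeq2 1.42.0, other filters, scalings, limits, a passage block and leaving out libraries were alternatives. DESeq2 and filterByExpr with the block were added after seeing the data. Only the edgeR fits of the constructs without the block and of the passages were tried on simulated counts. In each, 200 genes were changed 4-fold, up or down, and 200 were recovered with 0 false calls. Every gene was given the same spread. Smaller changes, the constructs with the block, filterByExpr and DESeq2 were not simulated, so the simulation says nothing about them.

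The block follows the passages given in the labels. Across the 9951 genes over the floor, the passage difference was correlated in all 6 pairings of groups, with Pearson's r of 0.148 at the lowest and 0.556 at the highest. Across the 178 genes, r was 0.040 at the lowest, for Neg-siRNA (300 mOsm) with Nfat5-2-siRNA, and 0.533 at the highest, between the Neg-siRNA groups.

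The genes described singly were set by a rule, namely the 12 largest mean siRNA differences, the 6 highest counts per kilobase in Neg-siRNA (500 mOsm), the 3 largest construct differences in each direction, and the 2 nearest to each limit on either side. Rank 35, rank 17 and the neighbouring pairs fall outside this rule and were chosen after their values were seen. Symbols were matched for 860 identifiers, none of them among the 178. Gene lists, cell type markers and sequences were not analysed here. Python 3.11.15, numpy 2.4.6, pandas 2.3.3 and matplotlib 3.10.9 were used for the rest.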

Additional observations from a re-analysis of the deposited data

Results flagged for a closer look

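The 178 genes contain 14 for which the constructs differed in a test of the difference itself, all with Nfat5-2-siRNA higher, in edgeR with the passage as a block, where 2.39% of all tested genes were called higher. Of the 14, DESeq2 with the block called 9, and edgeR with the block after filterByExpr called 1, which is 0.562% of the 178 genes, beside 0.526% of the genes tested there. The largest log2 fold changes between the constructs in that fit were 1.171 ± 0.218 (SE) at rank 2 (adjusted p-value 0.000319), 1.046 ± 0.138 at rank 26 (adjusted p-value 2.25e-08) and 1.034 ± 0.155 at rank 5 (adjusted p-value 1.51e-06). Rank 2 reached the floor of 400 normalized counts only with Nfat5-2-siRNA, with a mean of 755.4 beside 327.3 with Nfat5-1-siRNA. Its place among the genes thus favoured this direction, while ranks 26 and 5 were over the floor with both constructs. The shares of all tested genes include genes under the floor. With the block after filterByExpr, ranks 2, 26 and 5 had log2 fold changes of 1.189, 1.065 and 1.053, about as large as before. Their adjusted p-values were 0.154, 0.0715 and 0.413 in that fit, and with the block in DESeq2 0.0111, 1.51e-05 and 1. At rank 5 the libraries of passage 15 differed by far more than those of passage 17, 4269.9 against 12908 and 9575 against 12249.5 normalized counts, and at rank 26 passage 15 likewise had the larger gap, 4977 against 14264 and 6471 against 9691. Without passage 15 of Nfat5-1-siRNA, the log2 fold change at rank 5 was 0.37 in the fit without the block, and without passage 17 of it 1.53. The part of a single library in these differences was not tested further.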

How the results depend on the processing

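The number of raised genes follows its limits. It was 545 without the floor, 353 with a siRNA limit of 0.6, 93 with a limit of 1 and 103 with an osmotic window of 0.2. It stayed within 1.5 times of 178 with TMM scaling (158, of which 154 were among the 178), with a floor of 200 (205) and with a window of 0.5 (257). Leaving out single libraries, or 1 passage of all groups, gave 125 to 290 genes. Without passage 15 of Neg-siRNA (500 mOsm) 128 of 221 genes were among the 178, and without passage 17 of it 121 of 159. Without passage 15 of all groups 141 of 290 were, and without passage 17 of all groups 104 of 125.

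For Nfat5-2-siRNA against Nfat5-1-siRNA, the fit without the block called 0 genes in each direction. The number called higher was 4 without a filter on low counts, 1 with DESeq2, 1 with the Benjamini-Hochberg adjustment, 14 with the replicate block, 9 with DESeq2 and the block and 1 with filterByExpr and the block. DESeq2 with the block also called 1 lower. Leaving out any library called 0. The prior degrees of freedom of edgeR were 9.19 without the block, 76.5 without the filter and 5.84 with filterByExpr, and with the block 107.7 and, after filterByExpr, 8.96. The passage calls, 6 higher and 3 lower, were 0 and 0 with filterByExpr, 4 and 2 with DESeq2, and 8 higher and 9 lower with the Benjamini-Hochberg adjustment. Leaving out libraries gave 3 to 6 higher and 1 to 8 lower. The number higher was 3 without either Neg-siRNA (300 mOsm) library, and the number lower was 1 without either library of Neg-siRNA (500 mOsm) or Nfat5-2-siRNA, and 8 without either of Nfat5-1-siRNA. A group left with 1 library carries no information on the passages.

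Values of single genes were followed through the alternatives only for the 14 construct differences called with the block, the 9 passage calls and the 12 leading mean siRNA differences, and no direction reversed among these. Of their values under an alternative, 176 for the construct differences stayed uncalled, as they were in the fit without the block, and 20 were called, 14 of these with the block itself. The 14 calls of the block were followed only through DESeq2 and filterByExpr with the block, which made 9 and 1 of them. Of the other values, 77 for the passage differences stayed called and 40 did not, and 89 for the mean siRNA differences moved by less than 1 SD between the passages and 19 by more. The alternatives for the gene lists were not run, since the identifiers could not be paired with symbols.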
